A study of Mus musculus with 12 samples.

Results

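The genes described here belong to the myostatin pathway of skeletal muscle, together with the follistatin family and Mss51. They were taken by name: every probe set whose platform annotation gave exactly one of 10 listed symbols, and no other gene, was used. This gave 9 genes with 18 probe sets, of 18194 genes and 45101 probe sets on the array. Mstn, the gene of myostatin itself, was not analysed here. The list was drawn up with the mini-muscle against regular-muscle results of these arrays already known. The differences of its members are therefore only described below. Calls on members come from fits over all genes or all probe sets, and they are no independent support for the members.

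RNA was measured on 12 Affymetrix arrays of whole gastrocnemius, a calf muscle, each from 1 male mouse. All mice came from lines bred for high voluntary wheel running, at generation 37 of the selection, and were 79 to 86 days old (84 days on average). The 6 mini-muscle mice were from HR line #3 and had both gastrocnemius muscles pooled, whereas the 6 regular-muscle mice were from HR line #8 and gave the muscle of 1 limb. Mini-muscle is an inherited reduction of hindlimb muscle mass. Each phenotype was thus represented by a single line, no mice of the unselected control lines were among these arrays, and phenotype, line and limb pooling cannot be told apart.

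Myostatin is a secreted inhibitor of muscle growth of the TGF-beta family. It binds an activin type II receptor such as Acvr2b, which recruits and activates a type I receptor such as Acvr1b; the type I receptor then phosphorylates Smad2 and Smad3, which enter the nucleus with Smad4 and regulate transcription. Smad7 is an inhibitory Smad that is induced by the pathway and blocks it at the receptor. Follistatin (Fst) and follistatin-like 3 (Fstl3) bind myostatin and activins outside the cell and keep them from their receptors, while Fstl1 is a secreted glycoprotein that carries a follistatin domain and is made in abundance by connective tissue cells. Mss51 encodes a mitochondrial protein of skeletal muscle, found mainly in fast glycolytic fibres, that has been described as responsive to myostatin signalling.

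Levels are given as log2 of the MAS5 intensity. A difference is the mini-muscle mean less the regular-muscle mean, over n = 6 arrays in each group. Levels of different probe sets were not compared as amounts of RNA. They did serve to choose each gene's brightest probe set, to set a limit for dim signal and to sum or average lists. Correlations between arrays over 9097 genes were 0.954 to 0.974 within a group and 0.924 to 0.948 between groups. All 8 defining skeletal muscle markers examined lay above the dim limit, a log2 intensity of 8.56 that is the median over genes. Their summed intensity was 880565 to 991243 on the mini-muscle arrays and 929551 to 1163910 on the regular-muscle arrays.

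The promoters of Mss51, Fstl1 and Smad3, the 3 members called lower in mini-muscle, are shown first, as the RefSeq promoter table gives them (GRCm38.p6, the 250 bases before the annotated start, 5′ to 3′ on the strand of the gene). Their positions are Mss51 (chr14:20496902-20497151, minus strand), Fstl1 (chr16:37776805-37777054, plus strand) and Smad3 (chr9:63757995-63758244, minus strand). Capitals mark a palindromic Smad-binding sequence, GTCTAGAC.
Mss51: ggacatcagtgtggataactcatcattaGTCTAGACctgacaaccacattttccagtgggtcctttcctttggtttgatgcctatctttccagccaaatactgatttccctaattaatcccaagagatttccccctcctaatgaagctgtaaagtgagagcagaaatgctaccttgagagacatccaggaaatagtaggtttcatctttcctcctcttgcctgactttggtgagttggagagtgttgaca
Fstl1: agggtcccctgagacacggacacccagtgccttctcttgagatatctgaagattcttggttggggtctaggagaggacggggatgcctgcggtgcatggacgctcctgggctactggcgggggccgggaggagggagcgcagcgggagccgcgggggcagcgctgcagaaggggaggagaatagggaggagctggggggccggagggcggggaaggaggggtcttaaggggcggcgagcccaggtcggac
Smad3: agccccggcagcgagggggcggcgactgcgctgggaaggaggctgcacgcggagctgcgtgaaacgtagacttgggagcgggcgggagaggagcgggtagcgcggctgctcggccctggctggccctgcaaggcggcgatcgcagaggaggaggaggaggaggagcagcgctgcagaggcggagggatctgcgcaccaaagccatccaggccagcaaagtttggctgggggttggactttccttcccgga

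Of the 9 genes, 6 had an entry in that table. The Mss51 promoter was the exception in base composition. Its GC content was 43.2%, and 19.7% of all 27025 promoters in the table had a lower one, whereas the promoters of Fstl1, Smad3, Acvr2b, Fstl3 and Acvr1b had 68% to 78.8% GC, against a median of 52% over all promoters. GTCTAGAC occurred in the Mss51 promoter alone among the 6, beginning 222 bases before the start, and in 47 of all 27025 promoters (0.174%). This 8-base motif reads the same on both strands and was searched after the sequence had been seen. The other motifs were read on both strands, and none of them occurred in the Mss51 promoter. The shorter Smad box CAGAC was present in the promoters of Acvr2b and Fstl3 (42.1% of all promoters), the E-box CANNTG in those of Fstl3 and Acvr1b (66% of all) and the TATA box TATAAA in that of Fstl3 (13% of all). The promoters of Fstl1 and Smad3 held none of the 4 motifs in this window. A match of letters is a description and does not show that a factor binds there.

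Among the members, Mss51 was lower in mini-muscle by the widest margin, Fstl1 and Smad3 were lower by smaller margins, and Fst was higher. On their brightest probe sets, the receptors Acvr2b and Acvr1b and Smad2 had overlapping groups and differences of at most 0.22 in size. With the brightest probe set of each gene, 8 of the 9 genes were above the dim limit. Of these, 4 were called (1 higher, 3 lower) by limma at a Benjamini-Hochberg adjusted p under 0.05, where 26.7% of all 9097 genes tested were called. The same 4 genes had groups that did not overlap, as 13.0% of all genes tested had. Over all 18 probe sets, 6 were called and the same number had groups that did not overlap, where 8.92% of all 34958 single-gene probe sets were called and 5.46% did not overlap. Because the contrast was known when the members were listed, nothing is read from these counts.

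**Figure D1:**
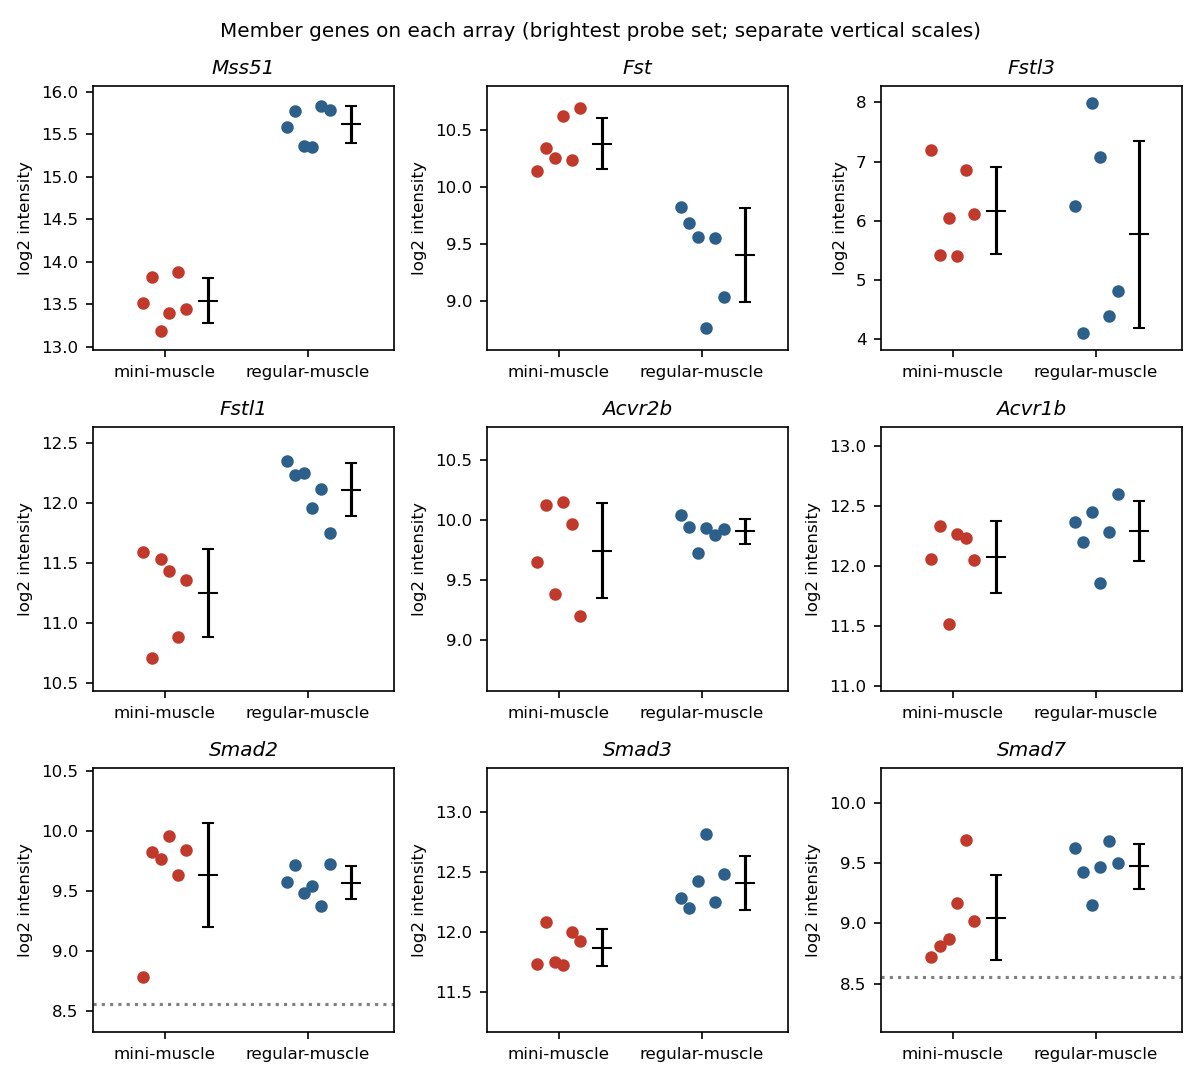
Log2 intensity (vertical axes, separate scale in each panel) of the brightest probe set of each of the 9 genes on the 6 mini-muscle (red) and 6 regular-muscle (blue) arrays. Points are arrays, black bars are mean ± SD, and the dotted line is the dim limit of 8.56 where it falls in the panel. The groups are apart for Mss51, Fst, Fstl1 and Smad3 and overlap for the other 5.

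Mss51 was read by 1 probe set (1432001_at). Its log2 intensity was 13.19 at the lowest, 13.48 at the median and 13.88 at the highest on the mini-muscle arrays, and 15.35, 15.68 and 15.83 on the regular-muscle arrays. The highest mini-muscle array therefore lay well below the lowest regular-muscle array. The means were 13.54 ± 0.26 (SD) and 15.61 ± 0.22, a 4.21-fold lower level in mini-muscle (log2 -2.07, SE 0.12). Only 7 of the other 9096 genes tested had a more negative difference, and the spread within groups (pooled SD 0.24) was near that of a typical gene, since 51.3% of genes had a smaller one. Leaving out any 1 array moved the difference between -2.14 and -2.00.

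Follistatin had higher values in mini-muscle on both of its probe sets, with no overlap of the groups on either. On the brighter one (1434458_at) the mini-muscle arrays ran from 10.14 through a median of 10.30 to 10.69, and the regular-muscle arrays from 8.77 through 9.56 to 9.82. Every mini-muscle array was thus above every regular-muscle array. The level was 1.96-fold higher (log2 0.97, SE 0.17; 10.38 ± 0.22 against 9.41 ± 0.41). The dimmer probe set (1421365_at) gave 1.25 (SE 0.35), with 4 of 6 mini-muscle and 0 of 6 regular-muscle arrays above the dim limit. There the groups only just failed to touch, at 8.41 for both the lowest mini-muscle and the highest regular-muscle array. Its call was lost in 6 of 12 cases without 1 array.

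Fstl3, the other antagonist, was read by 1 probe set (1422803_at) that lay below the dim limit on all arrays. It ranged from 5.40 to 7.19 (median 6.08) on the mini-muscle arrays and from 4.10 to 7.98 (median 5.53) on the regular-muscle arrays. The groups overlapped fully, and the difference of 0.40 was smaller than its SE of 0.71, so no difference in Fstl3 was detectable at this signal.

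Fstl1 was lower in mini-muscle on both of its probe sets. The brighter (1416221_at) ran from 10.71 through 11.40 to 11.59 on the mini-muscle arrays and from 11.75 through 12.18 to 12.35 on the regular-muscle arrays. Mini-muscle replicates 2 and 5 were the lowest, at 10.71 and 10.88, and the groups were apart. The level was 1.81-fold lower (log2 -0.86, SE 0.15), and the other probe set (1448259_at), also without overlap, gave -0.66 (SE 0.14).

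Fibroblast markers, taken as a sum, moved with Fstl1 across the arrays. The summed intensity of the 10 fibroblast markers was 34417 to 54645 on the mini-muscle arrays and 58687 to 84717 on the regular-muscle arrays, without overlap. The brightest genes weigh most in this sum, above all Gsn, at 14.36 in mini-muscle and 15.03 in regular muscle (named after its values were seen). The mean log2 intensity of the list, which weighs all 10 alike, was 10.68 to 11.13 in mini-muscle and 11.33 to 11.87 in regular muscle. None of the 10 rose and 6 fell, where 14.9% of all genes tested rose and 11.8% fell. The other 4, named after their values were seen, did not pass: Pi16 (-0.64), Pdgfra (-0.45), Mfap5 (-0.34) and Lum (0.07). Among those that fell were Col1a1 (-1.42, SE 0.18, adjusted p = 1.4e-05) and Col1a2 (-1.04, SE 0.17, adjusted p = 1.5e-04), the chains of type I collagen, and the matrix protein Dpt (-0.94, SE 0.16, adjusted p = 3.1e-04). Other probe sets of Col1a2 gave -1.49 (SE 0.23) and, below the dim limit, 1.06 (SE 0.88). With all its probe sets averaged, Col1a2 differed by -0.49 and was no longer called (adjusted p = 0.43). All 10 were above the dim limit in their mean over all arrays, Clec3b only through the regular-muscle arrays (8.32 in mini-muscle, 9.38 in regular muscle). Mini-muscle replicates 2 and 5, the lowest for Fstl1, also had the lowest fibroblast sums, at 40051 and 34417, and regular-muscle replicates 4 and 6, the lowest of their group for Fstl1, had the lowest sums of that group, at 58687 and 61101. Tendon markers were lower too: of 5 measured, all 3 that were above the dim limit fell, namely Tnmd (-1.33), Thbs4 (-0.74) and Kera (-0.91), and their list summed to 5217 to 8462 against 11380 to 13002. The part of these cells in the Fstl1 result was not tested. In whole muscle, fewer cells of a type and less RNA per cell cannot be told apart.

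**Figure D2:**
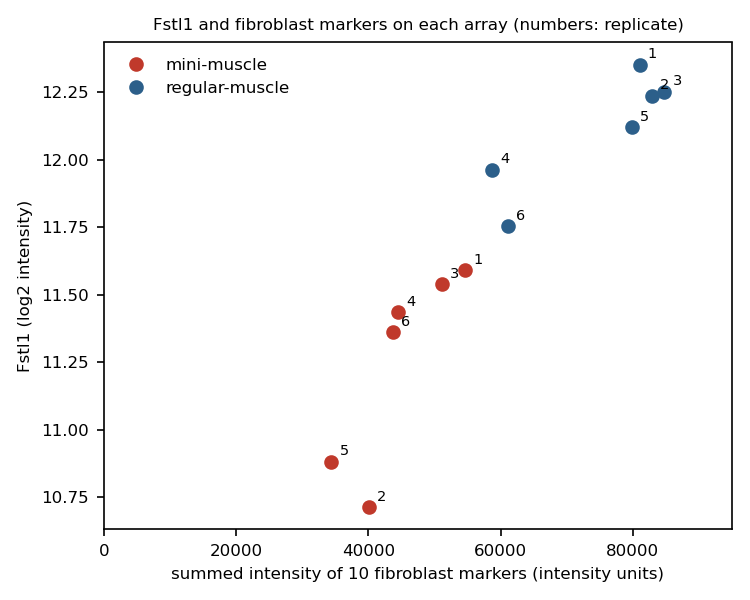
Fstl1 log2 intensity (vertical axis) against the summed intensity of 10 fibroblast markers (horizontal axis, intensity units) on each array, with the replicate number beside each point. The mini-muscle arrays (red) lie at sums of 34417 to 54645 and the regular-muscle arrays (blue) at 58687 to 84717, and in each group the pair of arrays with the lowest sums is the pair with the lowest Fstl1.

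For the receptors among the members the groups overlapped. Acvr2b, the type II receptor of myostatin, was read at usable signal by 1419140_at, at 9.20, 9.81 and 10.15 (lowest, median and highest) in mini-muscle and 9.72, 9.93 and 10.04 in regular muscle. The regular-muscle values lay inside the mini-muscle range, and the difference was -0.16 (SE 0.16). The spread was wider in mini-muscle (SD 0.40 against 0.10). Its other probe sets lay below the dim limit and gave -0.04 (SE 0.59) and -0.65 (SE 0.62).

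Acvr1b, the type I receptor also called ALK4, ran from 11.52 through 12.15 to 12.34 in mini-muscle and from 11.86 through 12.33 to 12.60 in regular muscle (1433725_at). The groups overlapped and the difference was -0.22 (SE 0.14). Mini-muscle replicate 3 was the low array at 11.52, and without 1 array the difference was between -0.30 and -0.10. A second probe set, below the dim limit on all arrays, gave -0.09 (SE 0.65).

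Of the Smads that carry the signal, Smad3 was lower in mini-muscle on its brightest probe set (1454960_at), at 11.72, 11.84 and 12.08 against 12.20, 12.35 and 12.82, with no overlap. This is 1.45-fold lower (log2 -0.54, SE 0.11), and with a pooled SD of 0.19 Smad3 was the steadiest member within groups. A dimmer probe set of Smad3 (1450472_s_at) gave -0.38 (SE 0.20) with overlapping groups, and the dimmest gave -0.07 (SE 0.42). With the mean of all 3 probe sets in place of the brightest, the difference was -0.33 and was no longer called.

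Smad2 ran from 8.78 through 9.80 to 9.96 in mini-muscle and from 9.37 through 9.56 to 9.73 in regular muscle on its brighter probe set (1442062_at). The regular-muscle values lay inside the mini-muscle range, and the difference was 0.07 (SE 0.18). Mini-muscle replicate 1 was the low array, at 8.78, and without it the difference was 0.24. The second probe set (1420634_a_at) gave 1.32 (SE 0.53), with 5 of 6 mini-muscle and 2 of 6 regular-muscle arrays above the dim limit and overlapping groups. The probe sets of Smad2 thus disagree in size, and the larger difference rests on the dimmer one.

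Smad7, the inhibitory Smad, had lower means in mini-muscle on both probe sets, with overlap. On the brighter (1423389_at) the arrays lay at 8.72, 8.94 and 9.69 against 9.15, 9.49 and 9.69, a difference of -0.43 (SE 0.18). Mini-muscle replicate 5, at 9.69, reached the top of the regular-muscle range. Without it the difference was -0.56 and Smad7 was called. The dimmer probe set (1443771_x_at), of a class that can match several transcripts, gave -0.67 (SE 0.31).

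**Figure D3:**
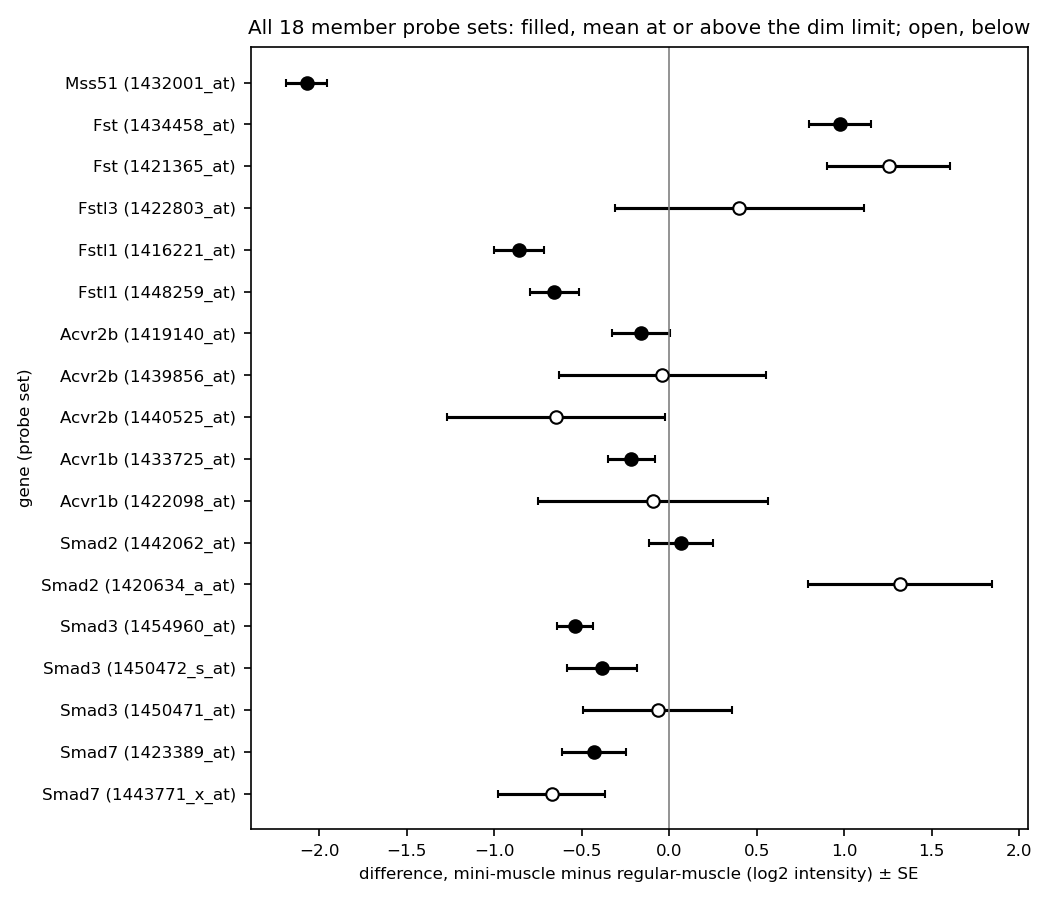
Difference between mini-muscle and regular-muscle arrays (horizontal axis, log2 intensity, mean ± SE of the fit over 34958 probe sets) for all 18 probe sets, grouped by gene. Filled points have a mean at or above the dim limit (10 probe sets) and open points lie below it (8). For each gene with several probe sets, all of them lie on the same side of 0, and the SEs are wider for the dim probe sets.

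The remaining pathway was read from a list of 43 other genes of myostatin, activin and TGF-beta signalling, all on the array and 31 above the dim limit. Of these 31, 1 rose and 7 fell in mini-muscle and 23 did not pass. The share called, 25.8%, is close to the 26.7% of all genes. In the downward direction it was 22.6%, where 11.8% of all genes fell, and upward 14.9% of all genes rose. The median difference of the list was -0.07, against 0.03 over all genes tested. When each gene's probe sets were averaged in place of taking the brightest, 3 of 31 were called (1 higher, 2 lower), where 17.0% of all genes were.

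Among receptors and co-receptors, 3 of 8 fell and 0 rose. Acvr2a, the other type II receptor that myostatin and activins use, was at 11.85 to 12.09 (median 11.91) in mini-muscle and 12.27 to 12.98 (median 12.83) in regular muscle. These groups did not overlap, and the level was 1.74-fold lower (log2 -0.80, SE 0.10, adjusted p = 1.7e-05). A dimmer probe set of Acvr2a gave -0.57 (SE 0.27). Tgfbr3, betaglycan, a co-receptor for TGF-beta and inhibin, fell by 0.71 (SE 0.10, adjusted p = 4.8e-05), also without overlap, while its second probe set, just below the dim limit, gave -0.10, and averaging the pair ended its call (-0.40, adjusted p = 0.083). The third was Bmpr1a, a type I receptor of bone morphogenetic proteins, which fell by 0.42 (adjusted p = 9.3e-04) and is named after its value was seen. Bmpr1a has 6 probe sets, of which only the brightest is given here. With probe sets averaged, 2 genes of the pathway list were called lower, and Bmpr1a was not among them.

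Of the other Smads, Smad4, the shared partner of Smad2 and Smad3, fell by 0.35 (SE 0.09, adjusted p = 0.0077) and the other 3 tested did not pass. The groups of Smad4 were apart, at 12.30 to 12.81 against 12.91 to 13.22. Its other probe sets gave -0.74 (SE 0.14) and -0.12 (SE 0.10), and centring the arrays on their medians ended its call. Among the cofactors and regulators, Ppm1a, a phosphatase that acts on Smads, fell by 0.33 (SE 0.08, adjusted p = 0.0056) and 6 of 7 did not pass. The 3 dimmer probe sets of Ppm1a that still passed the dim limit gave -0.22, -0.09 and -0.04. Its call was lost with the arrays centred on their medians, and with all its probe sets averaged (-0.15, adjusted p = 0.54).

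Of the ligands, Tgfb3 rose by 0.39 (SE 0.12, adjusted p = 0.019), with overlapping groups, and the other 4 tested did not pass. Gdf11, the ligand closest to myostatin, differed by -0.17 (SE 0.25). Among ligand-processing proteases, Pcsk6, a proprotein convertase, fell by 1.11 (SE 0.37, adjusted p = 0.033), from 9.29 ± 0.44 to 8.17 ± 1.01, which is below the dim limit. That call was lost in 5 of 12 cases without 1 array. Among extracellular binding proteins, decorin (Dcn), a matrix proteoglycan that binds TGF-beta family ligands, fell by 0.85 (SE 0.15, adjusted p = 2.8e-04) and the other 3 tested did not pass. A second probe set of Dcn, below the dim limit, gave 0.53 (SE 0.63), and with the pair averaged the difference was -0.16 and no longer called (adjusted p = 0.77). Decorin is itself made by fibroblasts, whose markers were lower as given above; their part in this result was not tested.

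**Figure D4:**
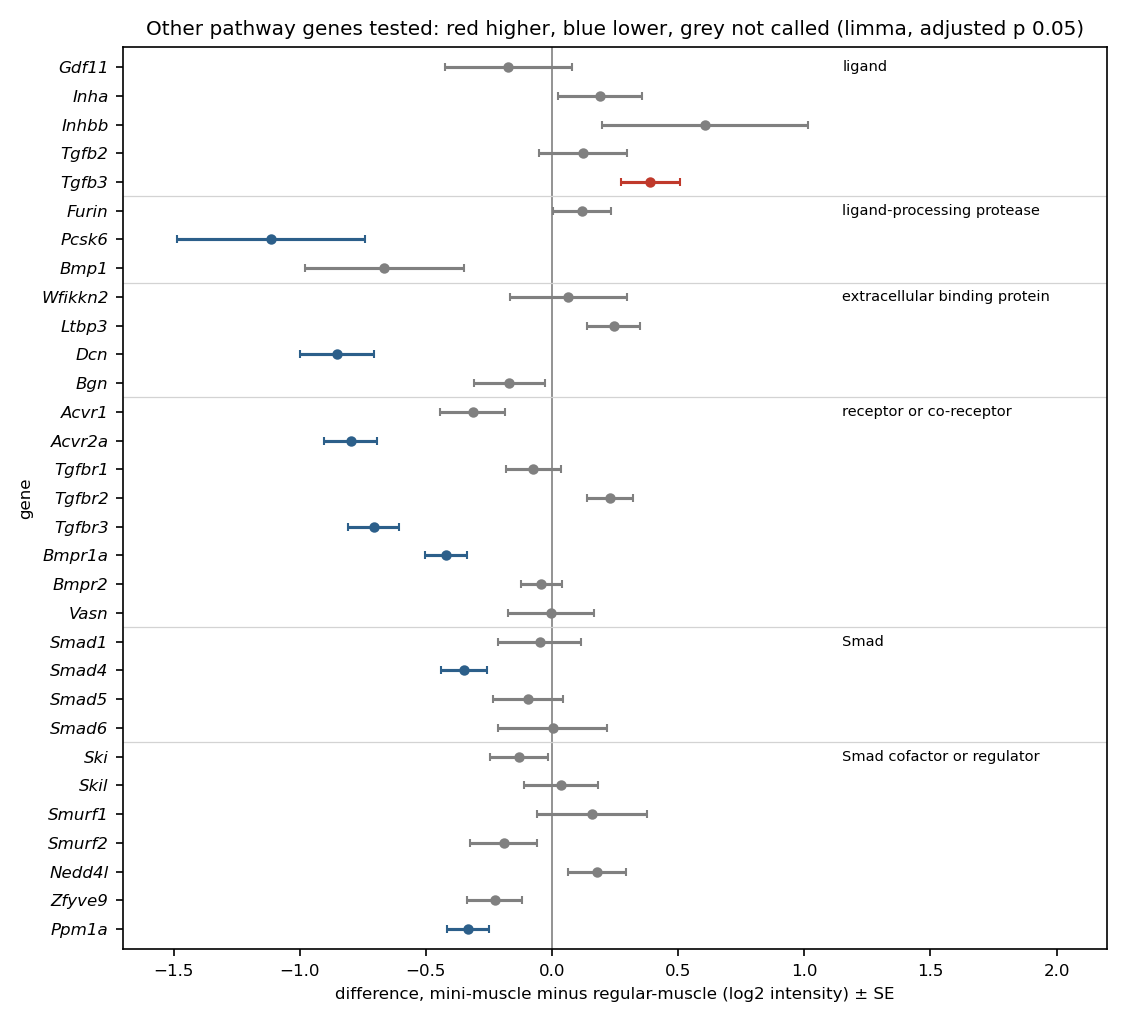
Difference between mini-muscle and regular-muscle arrays (horizontal axis, log2 intensity, mean ± SE) for the 31 other pathway genes tested, ordered by role. Red marks the 1 gene called higher (Tgfb3), blue the 7 called lower and grey the 23 that did not pass.

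The genes next to Mss51 on chromosome 14 were read next. In the gene order of the RefSeq table, the 5 genes on either side were all on the array and 8 of the 10 were above the dim limit. Of these 8, 4 rose, 2 fell and 2 did not pass, where 14.9% of all genes rose and 11.8% fell. On one side, the direct neighbour Anxa7, a calcium-dependent membrane-binding annexin, rose by 0.80 (SE 0.09, adjusted p = 5.2e-06). On the other side, Ppp3cb, a catalytic subunit of the phosphatase calcineurin, fell by 0.59 (SE 0.10, adjusted p = 1.9e-04). Further out, Myoz1, a Z-disc protein of fast fibres that binds calcineurin, fell by 0.51, whereas Synpo2l (0.51), Cfap70 (1.07) and Mrps16 (0.27, adjusted p = 0.040) rose. Cfap70 passed the dim limit only through the mini-muscle arrays (9.16, against 8.10 in regular muscle). The call of Mrps16 was lost in 7 of 12 cases without 1 array. Dnajc9 and Usp54 differed by -0.10 (adjusted p = 0.54) and 0.37 (adjusted p = 0.57).

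Probe sets of some neighbours disagreed. For Anxa7 dimmer ones gave 0.17 and, below the dim limit, -1.63 (SE 0.66). Those of Synpo2l gave 0.29, -1.57 (SE 0.46) and, below the dim limit, -1.31 (SE 0.42). For Ppp3cb the values were -0.69 (SE 0.13), -0.14, 0.07 and, below the dim limit, 0.42 (SE 0.68). Dimmer probe sets of Myoz1 (-0.78, SE 0.12) and, below the dim limit, Cfap70 (0.59, SE 0.57) had the same sign as the brightest. With each gene's probe sets averaged, 2 of 7 neighbours were called, both lower, where 17.0% of all genes were called. One of them was Synpo2l at -0.52. Ppp3cb was then at -0.18 and no longer called (adjusted p = 0.52).

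**Figure D5:**
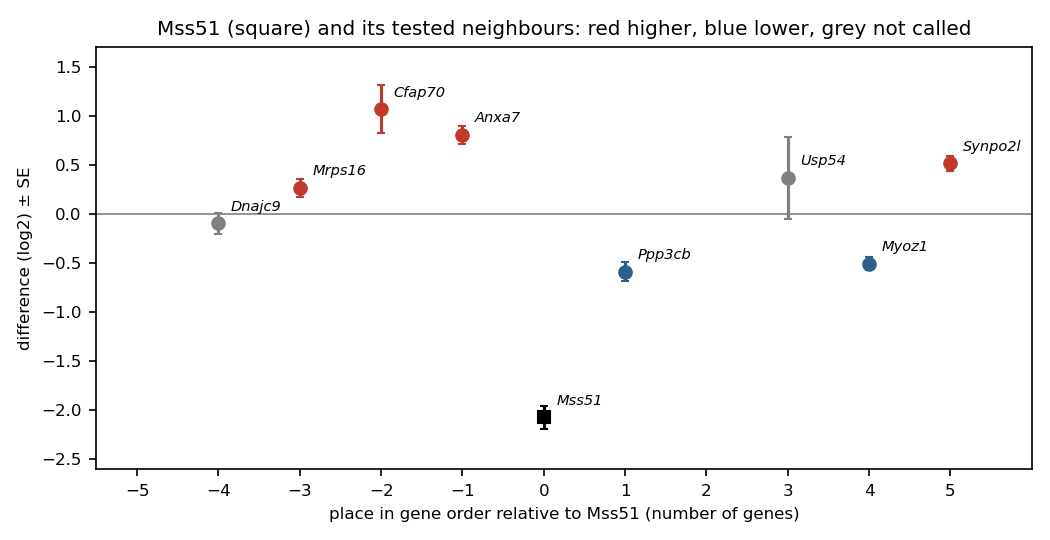
Difference between mini-muscle and regular-muscle arrays (vertical axis, log2 intensity, mean ± SE) for Mss51 (black square) and its 8 tested neighbours, placed by gene order (horizontal axis, number of genes from Mss51, not distance). Red marks genes called higher, blue lower and grey those that did not pass; Mss51 lies at -2.07 and its neighbours between -0.59 and 1.07.

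Variation of Mss51 within groups was described apart from the contrast, by taking off each group's mean. Over the 12 arrays and 9096 other genes, the deviations most like those of Mss51 were those of Ppp1r3d (Pearson r = 0.92), a glycogen-targeting subunit of protein phosphatase, Rtf1 (0.89), a transcription elongation factor, Xrcc4 (0.88), a DNA repair protein, Tor1aip1 (0.88), a nuclear envelope protein, and Sel1l (0.87), which serves protein degradation at the endoplasmic reticulum. These values share the arrays and their scaling, and they were chosen as the highest of many. After quantile normalization 2 of the 5 were still among the highest 5, and after centring arrays on their medians 3 were.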

How the data were processed

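For each of 12 gastrocnemius samples, 5 µg of total RNA (Trizol, then an RNeasy column) was labelled as biotinylated cRNA, per the labels' protocols. The authors deposited a linear intensity per probe set. Per the submitters' processing notes, MAS5 was used. Its settings and its detection calls were not given in the sources used here. The mean intensity after trimming 2% of probe sets at each end was 800.0 on all arrays, so they had been scaled to a common target. Such scaling leaves the shape of each array's distribution, and array medians were 211.9 to 275.2. Arrays have no sequencing depth, and their number limits the precision.

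Of 45101 probe sets, the platform annotation named 1 gene for 34958, several for 932 and none for 9211. Only the first kind was used. The log2 of each intensity was used, with no offset added. Differences were fitted with limma 3.58.1 in R 4.3.3 (lmFit, eBayes with intensity trend, two-sided, Benjamini-Hochberg adjustment), over the 9097 genes whose brightest probe set had a mean of at least 8.56, and again over all 34958 probe sets. Standard errors of a gene's brightest probe set above that limit come from the first fit and all others from the second. Adjusted p-values are from limma's first fit. The labels give 1 animal per array and no replicate numbers that pair the groups. The fit was also tested on simulated data for the comparison of 9097 genes, of which 200 were changed. It recovered 45% of genes changed 1.5-fold and 87% of those changed 2-fold, with 0 sign errors, and 13 of 145 calls were false. In the arrays themselves 26.7% of genes were called, a far larger share than was changed in the simulation, so these rates need not hold there.

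The members, the pathway and marker lists and the motifs were chosen with earlier results of these data known. Named were all members, pathway genes called with a difference of at least 0.5 or of smallest adjusted p in their role, all tested neighbours of Mss51, the 5 genes most like it within groups, and up to 3 genes of each marker list (fibroblast, tendon, satellite cell, endothelium, macrophage, adipocyte, Schwann cell, skeletal muscle). Promoter sequences are from RefSeq (GRCm38.p6), 1 per gene symbol, and the gene order is from the RefSeq table of that assembly. Alternatives were offsets of 16 and 64 before log2, quantile normalization, arrays centred on their medians, no intensity trend, no dim filter, the brightest 33.3% of genes, averaging each gene's probe sets, and leaving out each array in turn.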

Additional observations from a re-analysis of the deposited data

Results flagged for a closer look

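Single arrays lay far from the other 5 of their group in 10 of 116 groups of values examined, where chance gives about 5%. Among the member probe sets this held for 4 of 36 groups. Mini-muscle replicate 3 was low for Acvr1b (1433725_at), at 11.52 against 12.05 to 12.34 on the other mini-muscle arrays. Mini-muscle replicate 1 was low for Smad2 (1442062_at), at 8.78 against 9.63 to 9.96. At probe sets below the dim limit, regular-muscle replicate 1 was high for Acvr2b (1440525_at), at 7.96 against 5.34 to 5.60, and regular-muscle replicate 2 was low for Smad2 (1420634_a_at), at 4.88 against 7.59 to 8.83.

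Mini-muscle replicate 3 also stood apart for 4 other genes. It was low for Smad4 (12.30) and for the type IIb myosin Myh4 (15.31), and high for the endothelial markers Pecam1 (11.03) and Esam (11.47). Regular-muscle replicate 4 was low for Usp54 (6.54) and for the tendon marker Tnmd (10.03).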

How the results depend on the processing

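In the fit over genes, Mss51, Fst, Fstl1 and Smad3 kept their direction under every alternative tried, and Mss51, Fst and Fstl1 also kept their call. In the fit over probe sets, the dimmer one of Fst lost its call in 7 of 17 alternatives. The dimmer one of Fstl1 lost its call in 1 of 17, without the intensity trend. Mss51 ranged from -2.14 to -2.00, Fst from 0.85 to 1.11, Fstl1 from -0.93 to -0.75 and Smad3 from -0.58 to -0.33. With each gene's probe sets averaged, 1543 genes were called in place of 2426, 3 of the pathway list in place of 8 and 2 neighbours of Mss51 in place of 6, and Anxa7 (-0.22, adjusted p = 0.63) and Synpo2l (-0.52, adjusted p = 0.016) changed sign. The same averaging ended, among others, the calls of Dcn, Ppp3cb, Ppm1a, Tgfbr3, Col1a2 and Csf1r. Over all probe sets, 2028 were called with arrays centred on their medians and 1702 without the intensity trend, in place of 3117. Of the 5 genes most like Mss51, 2 remained among the highest 5 after quantile normalization and 3 after centring on medians. The count of members called was 4 to 5 without 1 array and 3 to 4 under the other alternatives. The cause of these changes was not tested. No paired analysis was possible because the labels give the groups no shared replicate numbers. Signal limits the reading of 8 member probe sets, among them the only one of Fstl3, whose means lay below the dim limit.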

Other observations

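Markers of other cells in the muscle moved in several directions. Over all genes tested, 14.9% rose and 11.8% fell. Of 6 macrophage markers 4 were tested and 3 fell: the mannose receptor Mrc1 (-0.77, adjusted p = 0.0036), the receptor Csf1r (-0.44, adjusted p = 0.021) and lysozyme, Lyz2 (-0.64, adjusted p = 0.028). The call of Csf1r was lost in 2 and that of Lyz2 in 5 of 12 cases without 1 array, and both were lost with arrays centred on their medians or probe sets averaged. Of 7 endothelial markers Pecam1 alone rose (0.50, adjusted p = 0.044), a call lost in 9 of 12 cases without 1 array, while Flt1 (0.23) and Esam (0.25) did not pass. Of 5 satellite cell markers 2 were tested. Chodl fell by 0.65 (adjusted p = 0.040), a call lost in 8 of 12 cases without 1 array, and passed the dim limit only through the regular-muscle arrays (8.43 in mini-muscle, 9.08 in regular muscle). Cdh15 differed by 0.17 (adjusted p = 0.58). Of the markers below the dim limit, Myf5 differed by 0.96, at 8.57 to 9.53 in mini-muscle and 7.41 to 8.35 in regular muscle without overlap, Vcam1 by 0.45 with overlap and Pax7 by -0.67; these are named after their values were seen. The adipocyte hormone Adipoq differed by -0.41 (adjusted p = 0.22), as the 1 gene of that list above the dim limit. Of the Schwann cell markers Mbp differed by -0.34 (adjusted p = 0.51) and Sox10 by 0.03 (adjusted p = 0.95).

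Of the 8 skeletal muscle markers 3 rose and 2 fell in mini-muscle, where 14.9% of all genes tested rose and 11.8% fell. Actn2, the alpha-actinin of all fibre types, rose by 1.11 and desmin (Des) by 0.85, and Myh4 fell by 1.33. With probe sets averaged, desmin differed by 0.56 and Myh4 by -2.22.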
